A study of Mus musculus with 16 samples.

Results

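Messenger RNA of the amyloid precursor protein family and of the enzymes and proteins that control its cleavage was followed here through cortical cells of aged THY-Tau22 and wild-type mice. The set held 9 of the 30389 genes in the deposited tables. It was made up of the precursors App, Aplp1 and Aplp2, the beta-secretase Bace1, the alpha-secretase Adam10, the gamma-secretase subunits Psen2 and Ncstn, and the BRI family genes Itm2b and Itm2c. The genes were chosen by symbol for their known roles, and all 9 were detected in every library.

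THY-Tau22 mice carry a mutant human tau transgene under the Thy1.2 promoter, which is active in neurons, and the study used animals heterozygous for it with wild-type (WT) littermates as controls. All animals were 17 months old, and fresh cerebral cortex was dissociated and profiled by Drop-seq, a droplet method that reads transcripts near their 3′ ends and counts unique molecular identifiers (UMIs). The series holds 16 libraries, 1 per animal, in 4 groups: male mice gave 4 WT and 4 transgenic libraries, and female mice gave 3 WT and 5 transgenic libraries. WT male 3 and THY-Tau22 male 4 shared 2952 of their 3000 barcodes, while every other pair of tables shared 3 to 12, and both were left out, which left 14 libraries.

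App and its relatives Aplp1 and Aplp2 are type I membrane proteins that are cleaved in sequence. Adam10 or Bace1 first sheds the ectodomain, and the gamma-secretase complex, of which Psen2 is a catalytic subunit and Ncstn the substrate receptor, then cuts the remaining stub within the membrane. Cleavage of App by Bace1 and gamma-secretase releases amyloid-beta, and the BRI proteins encoded by Itm2b and Itm2c bind App and limit its processing.

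Only App encodes amyloid-beta, and the coding stretch is printed here because it sets App apart from its relatives. It has 42 codons in exons 16 and 17 of 18, at chr16:84965670-84965720 and chr16:84962794-84962868 of GRCm38 (minus strand), and the capitals mark the last 2 codons, which are present in the 42-residue peptide and absent from the 40-residue peptide.
App: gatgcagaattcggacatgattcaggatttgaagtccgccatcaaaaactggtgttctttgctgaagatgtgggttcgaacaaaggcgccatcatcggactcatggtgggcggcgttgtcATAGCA
The best in-frame match of this stretch reached 38.1% identity in Aplp1 and 45.2% in Aplp2, against medians of 26.2% and 27.0% over all in-frame windows of those coding sequences.

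The cytoplasmic tails of the 3 precursors, in contrast, can be aligned base by base. They are shown as 19 codons around the motif that adaptor proteins bind, with the 6 codons of that motif in capitals.
App tail: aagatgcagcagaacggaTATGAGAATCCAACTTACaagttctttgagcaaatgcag
Aplp1 tail: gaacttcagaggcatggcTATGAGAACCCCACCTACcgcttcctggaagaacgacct
Aplp2 tail: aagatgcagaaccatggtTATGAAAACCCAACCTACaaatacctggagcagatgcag
Of the 57 bases, 29 were the same in all 3 genes, and 14 of these lay among the 18 bases of the motif. App and Aplp2 shared 77.2% of the bases, Aplp1 and Aplp2 63.2%, and App and Aplp1 57.9%. The tails lie at chr16:84955337-84955393 for App, chr7:30435296-30435352 for Aplp1 and chr9:31150877-31150933 for Aplp2, all on the minus strand and in the last exon. Itm2b ends in 23 codons that are cut off by furin-like proteases to release a small peptide, printed because Itm2b gave the widest genotype difference of the set. They lie in the last of 6 exons, at chr14:73363061-73363129 (minus strand).
Itm2b: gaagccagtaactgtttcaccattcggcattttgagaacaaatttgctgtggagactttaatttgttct
All sequences are GENCODE transcripts of the GRCm38 assembly. None of the 9 genes shared a 60-base window of the last 600 bases of its coding transcripts with another gene on the same strand. Bace1 (chr9:45838580-45864399, plus strand) shared 59.6% of these windows with Rnf214 or Gm49338 on the opposite strand, and whether the counting used strand is not given in the sources used here, so Bace1 values may hold reads of its antisense neighbours.

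In the 14 libraries, 24578 barcodes with 200 to 7000 detected genes were kept, 1121 to 2526 per library, and they held 755945 to 2089367 UMIs per library with a median of 429 to 736.5 per cell. The sex labels were met in all libraries, with 0 to 3 UMIs of Xist in males against 432 to 1817 in females. Clusters were named from marker genes, so that the class names were rebuilt here: 6805 microglia-like, 4747 astrocyte-like, 4671 oligodendrocyte-like, 3513 endothelial-like, 1219 neuron-like, 1103 OPC-like (oligodendrocyte precursor) and 879 mural-like cells were tested. A further 459 macrophage-like and 127 ependymal-like cells were not among the classes tested. Cells of unnamed clusters made up 29.1% of THY-Tau22 male 3 and at most 6.16% of any other library. Levels are given as CPM, the UMIs of a gene in each 1000000 UMIs summed over the cells of a library or of a class within it.

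App was highest in oligodendrocyte-like cells, followed by vascular and neuron-like cells, and was low in astrocyte-like cells. Over the 14 libraries its level in oligodendrocyte-like cells ran from 3220 to 5648 CPM with a median of 4020 (mean 4199 ± 729, SD). Endothelial-like cells held 2158 ± 372 CPM, mural-like cells 1921 ± 432 and neuron-like cells 1735 ± 402. OPC-like cells followed with 701 ± 146 CPM, microglia-like cells with 292 ± 61.0 and astrocyte-like cells with 113 ± 33.8. Oligodendrocyte-like cells thus supplied 52.1% of the 26543 App UMIs, and neuron-like cells 7.5%. These classes made up 19.0% and 4.96% of the kept cells, so such shares depend on which cells were recovered. The paper says that neurons may be under-represented in single-cell data because they are fragile in dissociation. For each gene the classes were ordered by mean CPM and each class was compared with the next within libraries, by a two-sided exact sign-flip permutation test on log2(CPM + 10), with p-values adjusted over all 54 pairs. The smallest p that this test allows with 14 libraries is 0.000122, and 22 of the 54 pairs passed an adjusted p of 0.05. App was higher in oligodendrocyte-like than in endothelial-like cells in 14 of 14 libraries, by 0.96 ± 0.14 (SD) on the log2 scale (adjusted exact p = 0.000824). Mural-like and neuron-like cells were not told apart by the test (difference 0.16 ± 0.34, higher in mural-like cells in 10 of 14 libraries, adjusted exact p = 0.212). All other neighbours in the App order differed, with adjusted exact p-values of 0.000824 to 0.032. In the neuron-like cells of WT female 2, 15 of 36 App UMIs came from 1 cell.

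**Figure D1:**
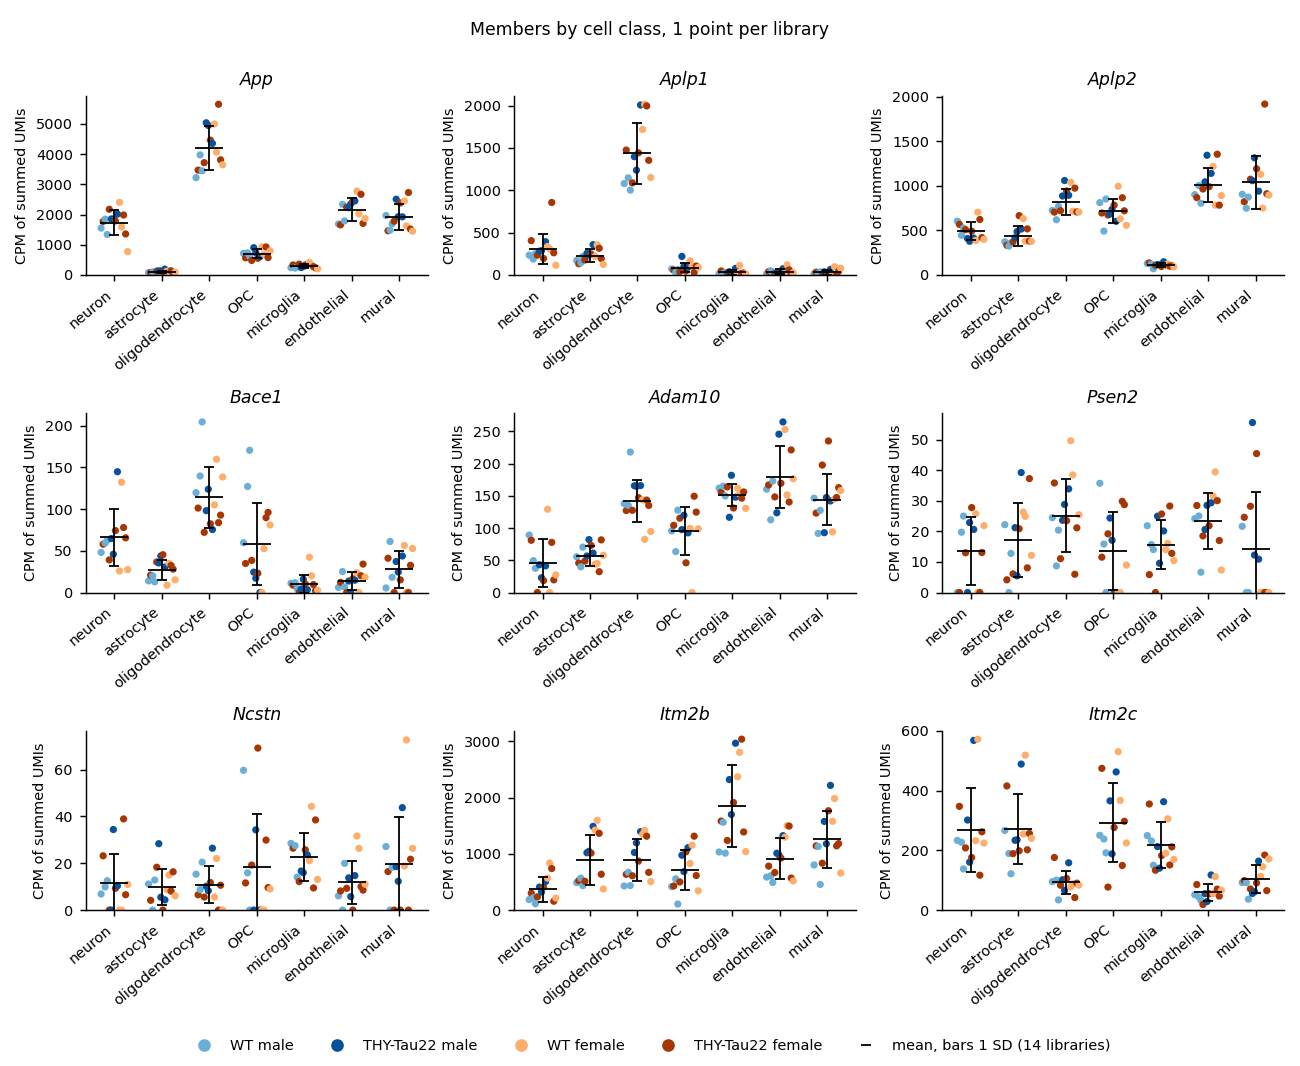
Level of each of the 9 genes (CPM of summed UMIs, y axis from 0) in 7 marker-defined cell classes (x axis), with 1 point per library coloured by group and black bars for the mean ± SD over 14 libraries. App, Aplp1 and Bace1 peak in oligodendrocyte-like cells (means of 4199, 1436 and 114 CPM), and Itm2b peaks in microglia-like cells (1856 CPM). Aplp2 has its highest means in mural-like and endothelial-like cells, and Adam10 has no single leading class.

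Aplp1, a relative of App best known from neurons, was concentrated in oligodendrocyte-like cells more than App was: they held 75.4% of its 6282 UMIs. Its level there ran from 1001 to 2014 CPM with a median of 1375, against 310 ± 175 CPM in neuron-like and 225 ± 76.1 CPM in astrocyte-like cells. The gap to neuron-like cells was 2.28 ± 0.47 on the log2 scale and was seen in 14 of 14 libraries (adjusted exact p = 0.000824). Neuron-like exceeded astrocyte-like cells in 11 of 14 libraries (0.37 ± 0.53, adjusted exact p = 0.029), but the highest neuronal value, 856 CPM in THY-Tau22 female 4, rested on 22 UMIs of which 16 came from 1 cell. Endothelial-like, microglia-like and mural-like cells held 33.0 to 38.5 CPM on average and were not told apart from each other.

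Aplp2, the most widely expressed of the 3 precursors, had its highest means in mural-like (1038 ± 302 CPM) and endothelial-like cells (1006 ± 193 CPM), which did not differ beyond their spread (adjusted exact p = 0.855). Without THY-Tau22 female 4, whose mural-like cells held 1917 CPM, endothelial-like cells had the highest mean. Endothelial-like cells exceeded oligodendrocyte-like cells (819 ± 143 CPM) in 14 of 14 libraries, by 0.29 ± 0.17 on the log2 scale (adjusted exact p = 0.000824). The next steps were OPC-like cells with 721 ± 133 CPM and neuron-like cells with 491 ± 102 CPM, and both were passed by the class above them (adjusted exact p = 0.0284 and 0.00165). Microglia-like cells held 111 ± 19.9 CPM, below astrocyte-like cells (438 ± 109 CPM) in 14 of 14 libraries. Of the mural-like Aplp2 UMIs of WT female 2, 16 of 31 came from 1 cell.

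The beta-secretase Bace1 followed App and Aplp1 in peaking in oligodendrocyte-like cells. There it ran from 72.1 to 204 CPM with a median of 103 (mean 114 ± 36.9), and 51.5% of its 724 UMIs lay in that class. It was higher there than in neuron-like cells (66.1 ± 34.5 CPM) in 13 of 14 libraries, by 0.77 ± 0.75 on the log2 scale (adjusted exact p = 0.0107). Below that, the order of neuron-like, OPC-like, mural-like and astrocyte-like cells was not resolved.

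The alpha-secretase Adam10 had no single leading class. Its means were 179 ± 48.3 CPM in endothelial-like, 152 ± 16.7 in microglia-like, 144 ± 39.6 in mural-like and 142 ± 32.5 in oligodendrocyte-like cells. No neighbours among these 4 classes passed the test. Oligodendrocyte-like cells did exceed OPC-like cells (95.4 ± 37.7 CPM) in 12 of 14 libraries, by 0.69 ± 0.84 (adjusted exact p = 0.00235). Astrocyte-like and neuron-like cells held 56.7 ± 15.5 and 45.5 ± 36.9 CPM.

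The gamma-secretase subunits were close to the limit of detection, with 338 UMIs of Psen2 and 261 of Ncstn over all kept cells. Psen2 ranged from a mean of 13.6 ± 11.3 CPM in neuron-like cells to 25.1 ± 12.0 CPM in oligodendrocyte-like cells. For Ncstn the range went from 9.91 ± 7.77 CPM in astrocyte-like cells to 22.6 ± 10.1 CPM in microglia-like cells. No pair of neighbouring classes differed for either gene, so the order of their levels was not resolved at this depth.

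Itm2b, which encodes BRI2, had its highest tested level in microglia-like cells. Over the libraries it ran from 1012 to 3041 CPM with a median of 1642, and the class held 38.8% of its 18738 UMIs. The macrophage-like cells, outside the test, held 1910 ± 953 CPM. Microglia-like cells exceeded mural-like cells (1261 ± 509 CPM) in 14 of 14 libraries, by 0.57 ± 0.33 on the log2 scale (adjusted exact p = 0.000824). Endothelial-like, oligodendrocyte-like and astrocyte-like cells followed with 911 ± 366, 895 ± 377 and 892 ± 439 CPM and were not told apart. Neuron-like cells were lowest with 372 ± 221 CPM, below OPC-like cells in 13 of 14 libraries (0.93 ± 0.49, adjusted exact p = 0.00132). In those of WT female 1, 11 of 22 Itm2b UMIs came from 1 cell.

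Itm2c, which encodes BRI3, had another order. OPC-like, astrocyte-like and neuron-like cells held 293 ± 132, 272 ± 118 and 269 ± 141 CPM and were not told apart, and neither were neuron-like and microglia-like cells (218 ± 76.2 CPM, adjusted exact p = 0.0828). Microglia-like cells exceeded mural-like cells (103 ± 46.6 CPM) in 12 of 14 libraries, by 1.06 ± 0.62 on the log2 scale (adjusted exact p = 0.00203). Endothelial-like cells were lowest with 59.9 ± 28.9 CPM.

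The microglia-like class joined a cluster of 5004 cells led by homeostatic genes such as Cx3cr1 and P2ry12 with a cluster of 1801 cells led by Ccl4, Cd83, Ccl3 and Tnf. Itm2b held 1968 ± 854 CPM in the former and 1773 ± 741 CPM in the latter, higher in the Ccl4-led cluster in 4 of 14 libraries. For App the means were 305 ± 81.6 and 278 ± 90.8 CPM. The ratio of the Ccl4-led to the other cluster lay between 0.825 and 1.15 for 8 of the 9 genes. For Bace1 it was 0.553, with means of 15.5 ± 18.2 CPM in the other and 8.58 ± 14.6 CPM in the Ccl4-led cluster. The whole microglia-like class held 38 Bace1 UMIs, and these means lay within their spread.

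Barcodes with fewer than 200 detected genes (17422 in the 14 libraries) also held these transcripts, with means of 1029 ± 320 CPM for App, 799 ± 344 for Itm2b, 433 ± 89.3 for Aplp2 and 306 ± 105 for Aplp1. The astrocyte-like App level of 113 CPM and the microglia-like Aplp1 level of 33.6 CPM lay below the levels in these sparse barcodes. The part of free RNA in the UMIs of the low classes was not tested.

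The genes whose pattern over 98 class-by-library sums was most like that of a member were found by Pearson's r of log2(CPM + 10) among 9336 genes, as a description, since the sums share libraries and depth. App was most like Dixdc1 (r = 0.862), Ttll7 (0.844) and Hsp90ab1 (0.827). Aplp1 was nearest to Kif1b (0.882), Kif21a (0.856) and Scd2 (0.854), and Aplp2 to Hip1 (0.879), Nedd4 (0.843) and Gng11 (0.815). For Bace1 the nearest were Mapt (0.720), the mouse gene of tau, Glrb (0.710) and Kif1b (0.705). Adam10 had Sh3glb1 (0.711), Gm12430 (0.701) and Tln1 (0.700) next to it, and Itm2c had Tspan7 (0.714), Lrp1 (0.705) and Gaa (0.701). The nearest to Itm2b were the ribosomal protein gene Rps26 (0.864) and the pseudogenes Rps26-ps1 (0.853) and Rps13-ps2 (0.851). Psen2 and Ncstn, with few UMIs, reached at most 0.499 (Micall1) and 0.466 (Fbxw4).

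The genotype question was whether THY-Tau22 and WT libraries differed in these genes, in males and in females, in all kept cells and in each of the 7 classes. Counts were compared with edgeR's quasi-likelihood test over all genes of a level, and a gene was called when its adjusted p was under 0.05 and its log2 fold change was 0.5 or more in size. After the filter on low counts, 47 gene-by-level tests remained: 8 levels each for App, Aplp2, Itm2b and Itm2c, 6 for Adam10, 5 for Aplp1, 2 for Bace1 and 1 each for Psen2 and Ncstn. None of the 47 was called by edgeR in males, where 0.112% of all 33885 gene-by-level tests were called, nor in females, where 0.00295% were. DESeq2 called 1 of them in males, Itm2b in oligodendrocyte-like cells (adjusted p = 0.0491), and none in females. With no adjustment, 10 of the 47 had p under 0.05 in males which is 21.3% against 15.2% of all tests. Of these, 9 were higher and 1 was lower in THY-Tau22, where 8.83% and 6.42% of all tests were. Itm2b at its 8 levels gave 8 of the 10, and Aplp1 and Bace1 gave 1 each. Since the levels share libraries, the count mostly repeats 1 gene. In females 1 of 47 had an unadjusted p under 0.05, 2.13% against 2.52% of all tests. For the mean over both sexes edgeR called 0 of 47 (background 0.00885%), DESeq2 none, and 2 had an unadjusted p under 0.05 (5.03% of all tests). For the male minus female difference edgeR called 0 of 47 (background 0.0502%), DESeq2 none, and 10 had an unadjusted p under 0.05 (13.4% of all tests), all higher in males (8.47%). Of these 10, Itm2b gave 8 and Aplp1 gave 2. Leaving out WT female 3 raised edgeR's calls to 2 in males (Itm2b) and 6 for the sex difference (Itm2b at 5 levels and Aplp1 in microglia-like cells), while leaving out WT female 2 gave 1 call in males and leaving out THY-Tau22 female 4 gave 1 for the sex difference, both of Itm2b. The titles of WT female 3 and THY-Tau22 female 5 carry MB22 and those of all other libraries MB21, and without these 2 libraries Itm2b was called at 2 levels in males and at 4 for the sex difference. The CPM of the median gene was 0.18 higher on the log2 scale in THY-Tau22 than in WT males over all cells, and the fold changes below are relative to edgeR's scaling, which removes that shift.

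Itm2b gave the widest genotype difference in males. In all kept cells its level was 631, 838 and 549 CPM in the WT males and 1359, 1192 and 1694 CPM in the THY-Tau22 males. In females it was 1554, 1848 and 567 CPM in WT and 877, 711, 1296, 1863 and 807 CPM in THY-Tau22. All 3 THY-Tau22 males thus lay above all 3 WT males, while the females of both genotypes overlapped widely, with WT female 3 the lowest of its sex. The log2 fold change was 0.89 ± 0.33 (SE) in males (edgeR adjusted p = 0.266) and -0.20 ± 0.30 in females. At this level of all cells, a change in the share of a cell type and a change in RNA per cell cannot be told apart.

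In microglia-like cells, where Itm2b was highest, the WT males held 1033, 1563 and 1012 CPM and the THY-Tau22 males 2322, 1701 and 2968 CPM. The WT females held 2372, 2807 and 1040 CPM, and the THY-Tau22 females 1583, 1238, 1914, 3041 and 1390 CPM. Again the male groups did not overlap and the female groups did. The log2 fold change was 0.86 ± 0.31 in males (edgeR adjusted p = 0.157) and -0.15 ± 0.27 in females.

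In oligodendrocyte-like cells Itm2b was 429, 672 and 436 CPM in the WT males and 1025, 1196 and 1396 CPM in the THY-Tau22 males. In the females of that class it was 1348, 1420 and 506 CPM in WT and 636, 610, 871, 1315 and 670 CPM in THY-Tau22. The male difference of 1.02 ± 0.29 on the log2 scale (edgeR adjusted p = 0.102) had the smallest p of all member tests in males. The WT females 1 and 2 lay above every WT male.

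The same order held at each level tested: in 8 of 8 levels every THY-Tau22 male exceeded every WT male for Itm2b, where 19.0% of all gene-by-level tests in males did so. Its male fold changes ran from 0.81 (endothelial-like) to 1.20 (OPC-like) on the log2 scale, with edgeR p-values of 0.00112 to 0.0142 and adjusted p-values of 0.102 to 0.539. In females they ran from -0.59 (neuron-like) to 0.12 (OPC-like). The male minus female difference was 1.02 to 1.70, with edgeR p-values of 0.000935 to 0.0489 and adjusted p-values of 0.0846 to 0.677, so it passed the adjusted threshold at no level. The classes share libraries and are not independent of each other. Without THY-Tau22 male 3, the library with the large unnamed cluster, the male difference was 0.79 ± 0.37 in all cells and 0.93 ± 0.32 in oligodendrocyte-like cells (edgeR adjusted p = 0.649 and 0.458).

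**Figure D2:**
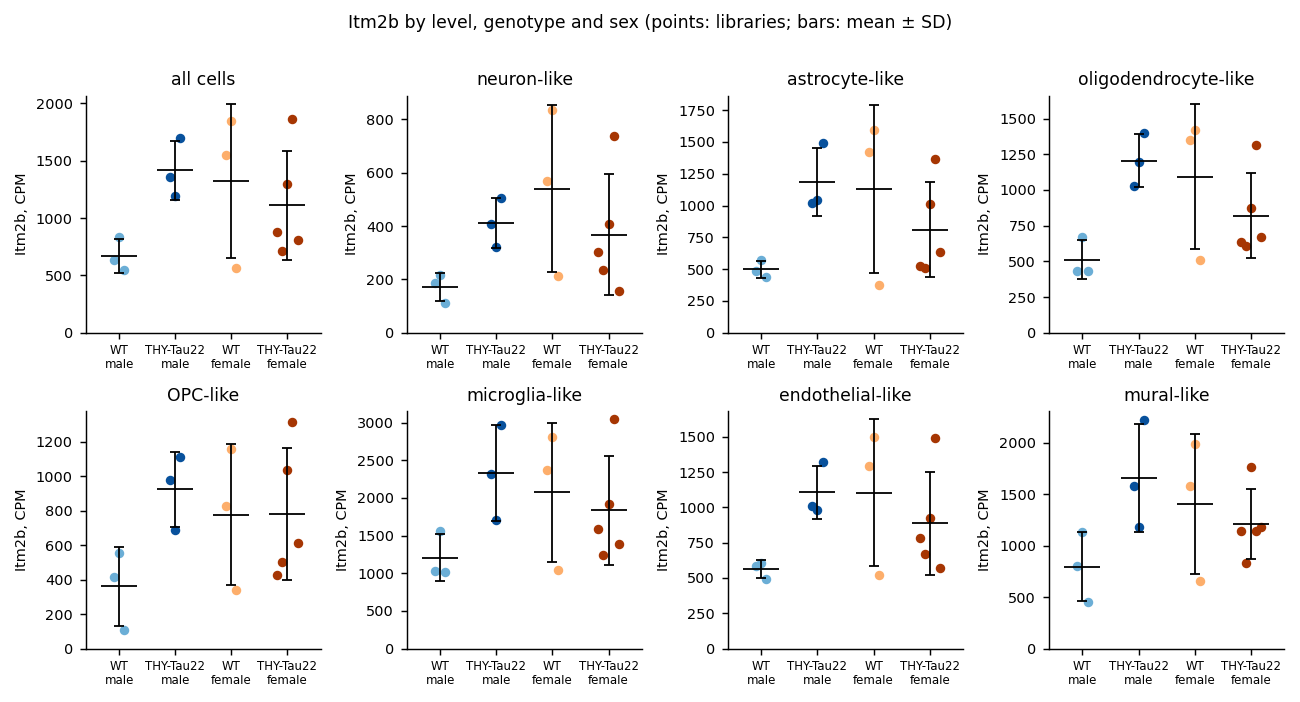
Itm2b level (CPM, y axis from 0) in all kept cells and in 7 cell classes, by genotype and sex (x axis), with 1 point per library and bars for the mean ± SD. In each panel the 3 THY-Tau22 male points lie above the 3 WT male points, while the female groups overlap.

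Other measures of the libraries moved with Itm2b. The summed CPM of 87 ribosomal protein genes was 10401, 12093 and 9841 in the WT males and 19415, 16509 and 20827 in the THY-Tau22 males, again without overlap. In females it was 15985, 24752 and 9232 in WT and 13997, 10608, 15171, 19763 and 11014 in THY-Tau22. The libraries that were high in Itm2b were also high in this sum. Over the 14 libraries Itm2b in all cells had a Pearson's r of 0.942 with it (permutation p = 2e-05, adjusted over 27 relations 0.00027) and a Spearman's rho of 0.960 (permutation p = 2e-05, adjusted 0.00027). Without the 2 libraries farthest from the median of the sum r was 0.930, within the 6 males 0.988 and within the 8 females 0.929. The median share of mitochondrial UMIs per cell also went with Itm2b (r = 0.914 and rho = 0.947, permutation p = 2e-05 for each, adjusted 0.00027, r = 0.898 without the 2 farthest libraries). It was 0.409%, 0.571% and 0.351% in the WT males and 0.952%, 0.889% and 1.33% in the THY-Tau22 males. The share of oligodendrocyte-like cells did not go with Itm2b (r = 0.156, adjusted permutation p = 0.804, rho = 0.253, adjusted permutation p = 0.542). These relations were looked at after the values were seen, and the part of any of these measures in the Itm2b difference was not tested.

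**Figure D3:**
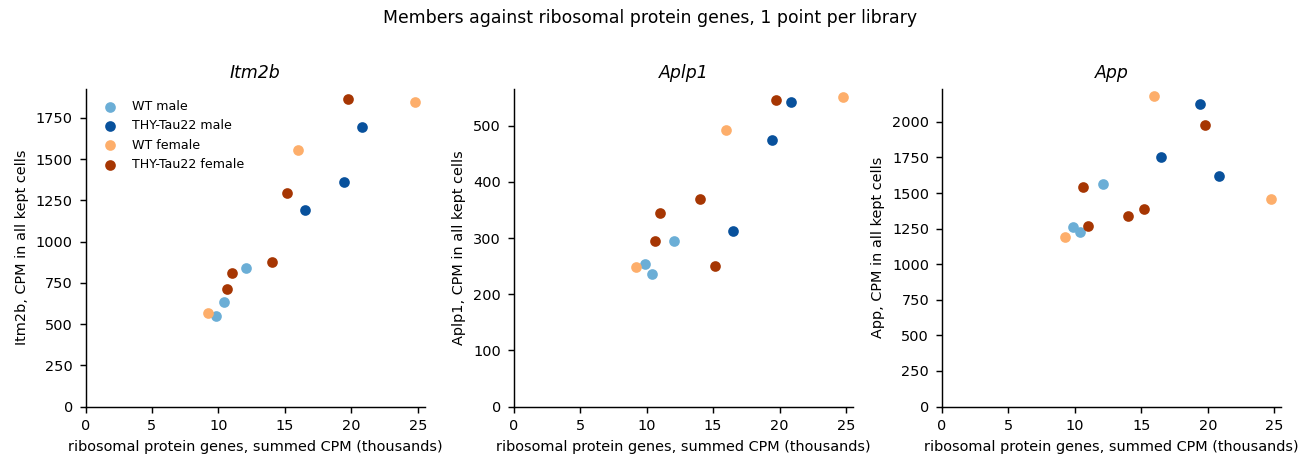
Level in all kept cells (CPM, y axis) against the summed CPM of 87 ribosomal protein genes (x axis), with 1 point per library coloured by group. Itm2b rises with the ribosomal sum over the 14 libraries (r = 0.942), and the 3 THY-Tau22 males lie right of and above the 3 WT males.

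Aplp1 had the next largest male difference in all cells. It was 236, 294 and 254 CPM in the WT males and 475, 312 and 542 CPM in the THY-Tau22 males. In females it was 492, 550.5 and 248 CPM in WT and 370, 295, 249, 545 and 345 CPM in THY-Tau22. The male groups did not overlap, with THY-Tau22 male 2 close to the WT values, and the female groups overlapped. The log2 fold change was 0.58 ± 0.28 in males (edgeR adjusted p = 0.320) and -0.20 ± 0.24 in females. In oligodendrocyte-like cells, which hold most of the Aplp1 UMIs, it was 0.31 ± 0.24 in males and -0.10 ± 0.22 in females, and without THY-Tau22 male 3 the male value was 0.10. Over the 5 levels tested, Aplp1 fold changes ran from 0.31 to 0.94 in males and from -0.97 to 0.59 in females. Its male minus female difference ran from -0.19 to 1.91 (edgeR p-values of 0.0302 to 0.748, adjusted 0.296 to 0.973). Aplp1 in all cells had r = 0.868 and rho = 0.851 with the ribosomal sum (permutation p = 0.0003 and 0.00038, adjusted 0.0027 and 0.00257), 0.800 without the 2 farthest libraries, 0.940 in males and 0.833 in females.

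App differed less between the genotypes. In all cells it was 1227, 1560 and 1258 CPM in the WT males and 2126, 1754 and 1619 CPM in the THY-Tau22 males. The females held 2185, 1459 and 1195 CPM in WT and 1341, 1545, 1390, 1980 and 1270 CPM in THY-Tau22. The male groups did not overlap, yet the log2 fold change of 0.27 ± 0.25 (edgeR adjusted p = 0.609) was within the spread, and in females it was -0.07 ± 0.22. In oligodendrocyte-like cells App was 3220, 3972 and 3446 CPM in the WT males and 5035, 4947 and 4353 CPM in the THY-Tau22 males. The females of that class held 4995, 4067 and 3645 CPM in WT and 3468, 3717, 4461, 5648 and 3809 CPM in THY-Tau22. The fold changes there were 0.23 ± 0.24 in males and 0.02 ± 0.22 in females. Over the 8 levels App fold changes ran from 0.07 to 0.61 in males and from -0.44 to 0.19 in females. The lowest edgeR adjusted p-values were 0.314 and 0.996. The paper discusses a change of App in neurons that is specific to females. Neuron-like cells of the females held 2403, 1585 and 772 CPM in WT and 1772, 2173, 1790, 1984 and 1356 CPM in THY-Tau22, and these groups overlapped. Across libraries App went with the share of oligodendrocyte-like cells (r = 0.731, adjusted permutation p = 0.0166, rho = 0.675, adjusted permutation p = 0.0344, r = 0.713 without the 2 farthest libraries, 0.865 in males and 0.628 in females), a share that was 16.1% to 20.1% in the WT males and 15.8% to 29.0% in the THY-Tau22 males. By rank App also went with the ribosomal sum (rho = 0.727, adjusted permutation p = 0.0196) and the mitochondrial share (rho = 0.701, adjusted permutation p = 0.0255). Pearson's r with these was 0.548 and 0.524 (adjusted permutation p = 0.140 and 0.148). The part of each measure in the App values was not tested.

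For Aplp2 the log2 fold change in all cells was 0.09 ± 0.23 in males and 0.02 ± 0.21 in females, and in mural-like cells it was 0.30 ± 0.28 and 0.24 ± 0.26. All 3 THY-Tau22 males exceeded all 3 WT males at 5 of 8 levels and lay below them at 1, the neuron-like cells (-0.53 ± 0.32, edgeR adjusted p = 0.733), where 19.0% and 6.86% of all gene-by-level tests in males did so. App showed such an order upwards at 3 of 8 levels and Aplp1 at 4 of 5, and the other members apart from Itm2b at none of the levels where they were tested.

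**Figure D4:**
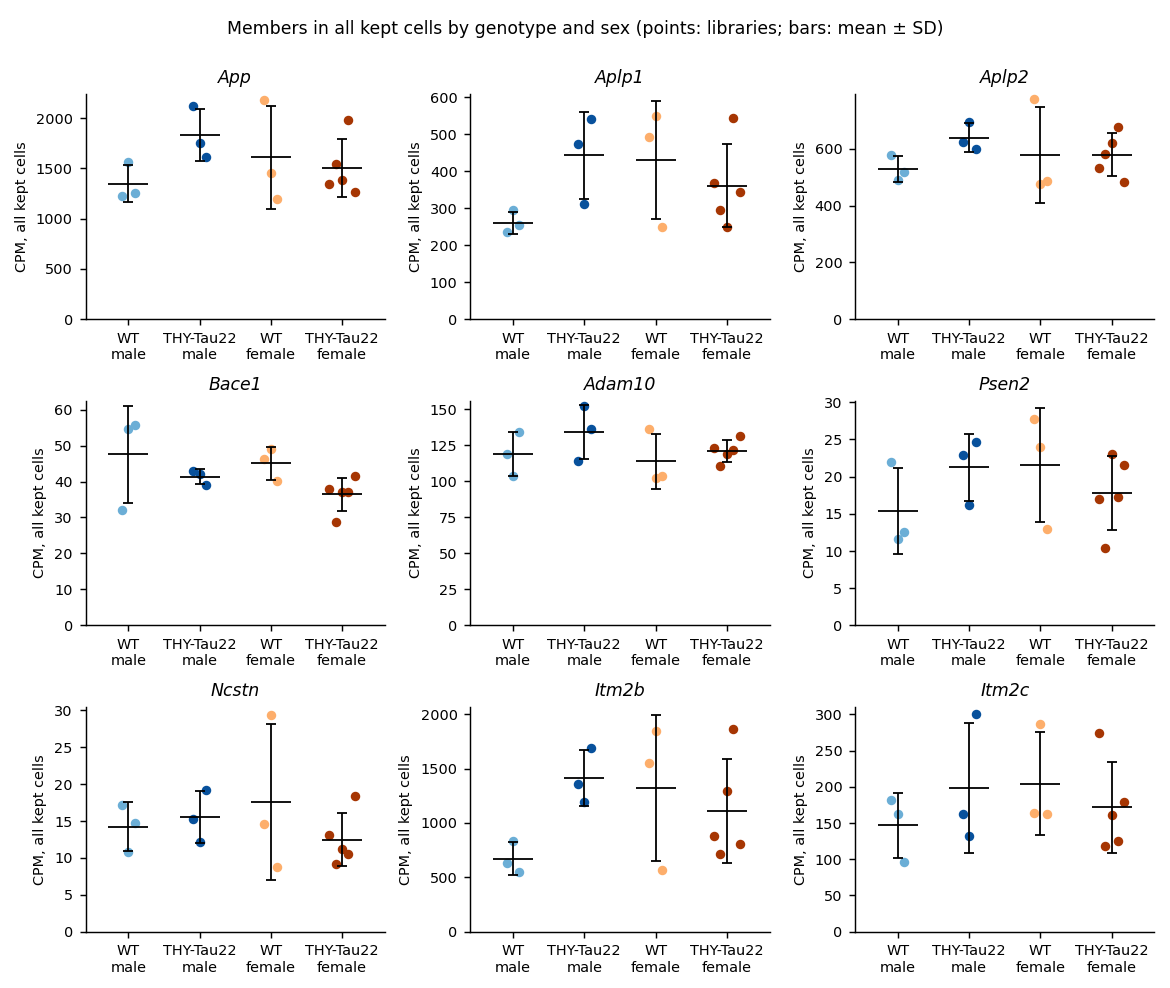
Level of each of the 9 genes in all kept cells (CPM, y axis from 0) in the 4 groups (x axis), with 1 point per library and bars for the mean ± SD. The THY-Tau22 males lie above the WT males without overlap for App, Aplp1, Aplp2 and Itm2b, and none of the 9 separates the female groups. Over the 8 levels together, 19.0% of all gene-by-level tests in males showed such an order upwards. The CPM are not scaled, and the median gene over all cells was 0.18 higher on the log2 scale in THY-Tau22 males.

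Bace1 had lower fitted values in THY-Tau22 in both sexes at the 2 levels where it was tested, all cells and oligodendrocyte-like cells. In oligodendrocyte-like cells it was 119.6, 139.5 and 204 CPM in the WT males and 98.1, 124 and 75.4 CPM in the THY-Tau22 males. In females it was 105, 159.6 and 138 CPM in WT and 101, 72.1, 82.4, 83.7 and 92.7 CPM in THY-Tau22. All 5 THY-Tau22 females lay below all 3 WT females, where 0.829% of genes tested in that class did so, although the nearest values, 101 and 105 CPM, lay close together, and in males 1 THY-Tau22 library overlapped the WT range. The log2 fold change was -0.80 ± 0.31 in males (edgeR adjusted p = 0.189) and -0.58 ± 0.28 in females (adjusted p = 0.996). Over both sexes it was -0.69 (edgeR adjusted p = 0.922), and the male minus female difference was -0.22 (adjusted p = 0.823). In all cells the values were -0.35 ± 0.24 in males and -0.27 ± 0.22 in females. Other classes did not pass the filter on low counts and did not share 1 direction. Astrocyte-like cells held 13.9, 19.9 and 12.8 CPM in the WT males and 35.4, 43.8 and 30.6 CPM in the THY-Tau22 males. OPC-like cells held 59.7, 127 and 170 CPM in the WT males and 24.4, 17.1 and 0 CPM in the THY-Tau22 males. These male values rest on at most 8 UMIs per library and were not tested, and the female groups overlapped in both classes. The antisense overlap of the Bace1 transcripts given above applies to these counts.

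Adam10, Psen2, Ncstn and Itm2c showed no difference beyond the spread between libraries. Adam10 in all cells lay between 104 and 134 CPM in the WT males and between 114 and 152 CPM in the THY-Tau22 males, with log2 fold changes of -0.01 ± 0.21 in males and 0.11 ± 0.19 in females. In endothelial-like cells they were 0.33 ± 0.32 and -0.14 ± 0.28. Psen2 and Ncstn passed the filter in all cells only, with values of 0.21 ± 0.34 and -0.09 ± 0.38 in males and -0.15 ± 0.31 and -0.33 ± 0.35 in females. Itm2c changed by 0.22 ± 0.32 in males and -0.20 ± 0.29 in females over all cells, and by 0.37 ± 0.47 and -0.29 ± 0.40 in OPC-like cells. Its male value turned to -0.15 without THY-Tau22 male 3, which held 300.2 CPM against 95.6 to 182 CPM in the other males.

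**Figure D5:**
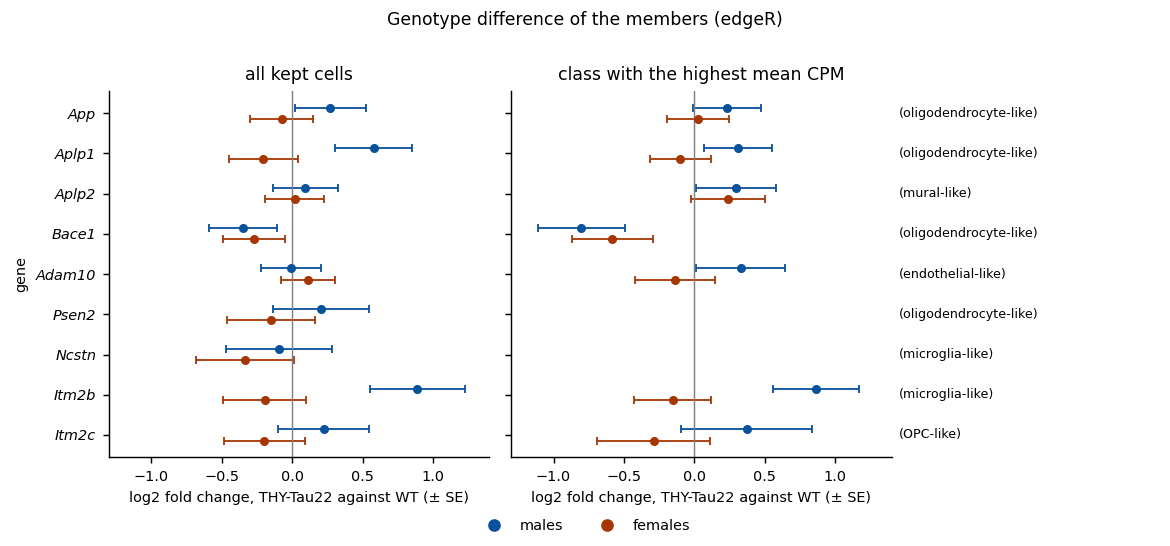
Log2 fold change of THY-Tau22 over WT (x axis, edgeR, bars are the SE) for each gene in males and females, in all kept cells (left) and in the class with the highest mean level (right). Psen2 and Ncstn were not tested in their highest class, the male value of Itm2b is the largest (0.89 in all cells and 0.86 in microglia-like cells), and Bace1 lies below 0 in both sexes.

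Of 44 further genes of amyloid precursor processing (other secretase subunits and sheddases, tail adaptors, trafficking proteins, sheddase inhibitors, amyloid-beta degrading enzymes and other secretase substrates), 43 were in the tables and 39 were tested in all cells. Over the 8 levels they gave 123 tests, of which edgeR and DESeq2 called 0 in males and 0 in females, and 11 in males (5 higher, 6 lower) and 1 in females (lower) had an unadjusted p under 0.05. These were 8.94% and 0.813% of the tests, against 15.2% and 2.52% of all gene-by-level tests. For the male minus female difference both tools called 0 of the 123, 14 (11.4%, against 13.4% of all tests) had an unadjusted p under 0.05 (9 higher, 5 lower), and edgeR called 6 without WT female 3. The median log2 fold change of the 39 genes in all cells was -0.02 in males and 0.00 in females, against 0.01 and -0.01 over all genes. Over the male and female comparisons, the 5 genes with the smallest p in all cells all had it in males.

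Adam9, a sheddase that can act as an alpha-secretase and cleaves Adam10, averaged 12.7 CPM in the WT males and 40.7 CPM in the THY-Tau22 males, ranges that did not overlap. Its log2 fold change was 1.42 ± 0.36 in males (edgeR adjusted p = 0.196) and -0.63 ± 0.32 in females. Mapk8ip1, an adaptor of the App tail, averaged 20.0 CPM in WT and 43.7 CPM in THY-Tau22 males (0.92 ± 0.41, adjusted p = 0.293). In females it averaged 44.3 CPM in WT and 29.2 CPM in THY-Tau22. The other 3 had lower values in THY-Tau22 males: Timp3, an inhibitor of Adam sheddases, at -0.69 ± 0.24 (adjusted p = 0.248), the secretase substrate Notch1 at -0.73 ± 0.29 (adjusted p = 0.273), and Apba2, another tail adaptor, at -0.67 ± 0.28 (adjusted p = 0.287). None of the 5 passed the call rule.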

How the data were processed

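According to the labels and the methods of the study, cortex was dissociated with an adult brain kit, Drop-seq libraries were sequenced on a NextSeq 500, and the authors deposited tables of UMI counts per gene and barcode (mm10 build; tool versions are not given in the sources used here). The deposited counts were used as they stand, and all columns and rows named a barcode or a gene. Barcodes with 200 to 7000 detected genes were kept, clustered without the members and pathway genes (scanpy 1.11.5, Leiden resolution 0.5, 17 clusters) and named from fixed markers. Scrublet marked 1473 doublets (5.16%), which were kept in the primary setting and dropped in an alternative. UMIs were summed per library and class (at least 10 cells) and tested with edgeR 4.0.16 in R 4.3.3 (TMM, filterByExpr, 1 mean per group, 14 libraries, Benjamini-Hochberg adjustment over all genes of a level), with DESeq2 1.42.0 as an alternative. The edgeR procedure was tested on simulated data. All 9 members are named at every level, with fold changes in all cells and in the highest class, 5 pathway genes by smallest p, and 3 alike genes per member (at least 200 UMIs). Members, lists and tests were chosen with earlier results of these data known. Means are over libraries, and each library is 1 animal per the study. The title of WT male 1 carries the same animal number as that of THY-Tau22 female 1, and groups were taken as labelled. Coordinates and sequences come from GENCODE M21 on GRCm38.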

Additional observations from a re-analysis of the deposited data

Results flagged for a closer look

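In 65 groups of 4 or 5 libraries, the highest or lowest value of a member within a class was compared with its nearest neighbour, and 2 stood apart by Dixon's 95% limit (0.71 of the range for 5 libraries). Chance alone flags about 1 in 20 such groups. Both were from THY-Tau22 female 4. App in its OPC-like cells was 926 CPM (31 UMIs in 68 cells), against 576 CPM in the nearest and 481 CPM in the lowest THY-Tau22 female, a gap of 0.787 of the range. Itm2c in its mural-like cells was 184 CPM (5 UMIs in 29 cells), against 98.6 CPM in the nearest and 65.1 CPM in the lowest, a gap of 0.719 of the range.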

How the results depend on the processing

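Over all alternatives 19 to 23 of 54 neighbouring pairs of cell classes passed, against 22. This count does not show whether the same pairs passed. The highest class changed for Aplp2, from mural-like to endothelial-like cells, when THY-Tau22 female 4 was left out. Member calls in males were 0 in the primary setting, 1 by DESeq2 (Itm2b, oligodendrocyte-like), 2 without the 2 female libraries whose titles carry MB22 (Itm2b, astrocyte-like and oligodendrocyte-like), and 0 to 2 when 1 library was left out: 2 without WT female 3 and 1 without WT female 2. All groups share 1 fit with 1 estimate of the spread, and the filter, scaling and adjustment were also rerun. Which of these brought the added male calls was not tested. For the male minus female difference they were 1 with no filter on low counts (Itm2b, astrocyte-like), 4 without the MB22 libraries (all Itm2b), and 0 to 6 with 1 library left out, 6 without WT female 3 (Itm2b 5 times and Aplp1 in microglia-like cells) and 1 without THY-Tau22 female 4. Pathway calls in males were 1 (Adam9) with no filter and 1 without the MB22 libraries. For the sex difference they were 1 with no filter (Adam9), 4 without MB22 and 0 to 6 with 1 library left out, 6 without WT female 3. With all 16 tables as labelled, the largest male Itm2b change was 0.80 and none was called. Of 736 alternative values of 32 fold changes, 711 kept their direction and 25 turned, with no value past the threshold in any of them; the causes were not tested. Adam10 in males (all cells) was 0.036 without doublets. The others turned with 1 library left out, over ranges, in all cells, of -0.20 to 0.19 (App, females), -0.16 to 0.26 (Aplp2, females), -0.38 to 0.053 (Psen2, females), -0.27 to 0.13 and -0.64 to 0.17 (Ncstn, males and females), -0.12 to 0.079 and -0.022 to 0.23 (Adam10), -0.51 to 0.042 (Itm2b, females), and -0.15 to 0.44 and -0.43 to 0.021 (Itm2c). By class, in females, they were -0.062 to 0.16 (App, oligodendrocyte-like), -0.22 to 0.0097 (Aplp1, oligodendrocyte-like), -0.29 to 0.036 (Adam10, endothelial-like), -0.42 to 0.095 (Itm2b, microglia-like) and -0.71 to 0.052 (Itm2c, OPC-like). No paired analysis was possible because the replicate numbers were given in accession order only. Depth limits Psen2 and Ncstn, with 338 and 261 UMIs, and 3 to 5 libraries per group limit every genotype test.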

Other observations

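The 2 tables that share nearly all barcodes held close member levels under opposite labels. App in all cells was 1382 CPM in WT male 3 and 1310 CPM in THY-Tau22 male 4, and Aplp1 was 328 and 294 CPM. Itm2b was 871 and 844 CPM.

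Among the classes outside the test, the macrophage-like cells held 608 ± 215 CPM of App (SD, n = 14), above the microglia-like mean of 292 CPM, and 353 ± 139 CPM of Aplp2 against 111 CPM. Itm2c reached 417 ± 323 CPM in the ependymal-like cells of the 4 libraries with at least 10 of them, from 71.0 to 850 CPM. The difference of these classes from the tested ones was not tested.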
